A study of Mus musculus with 2 samples.

Results

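Interferon-stimulated genes were followed across the cells of mouse liver, through 10 genes taken by symbol out of 31053 in the gene list of both libraries: Isg15, Rsad2, Ifit1, Ifit3, Irf7, Ifi44, Ifi27l2a, Usp18, Oasl1 and Gbp3. All 10 symbols were found. The question was which liver cells hold their transcripts, whether a few cells hold most of them, and whether the same cells hold several of the genes, in each diet. Liver cells came from C57BL/6 mice fed either chow or a NASH diet (non-alcoholic steatohepatitis, a diet high in fructose, fat and cholesterol) for 6.5 weeks, with 1 single-cell RNA library per diet. The livers were digested with collagenase and cells of several densities were recovered on Percoll, so hepatocytes and non-parenchymal cells entered the same library. The labels do not say whether a library came from 1 mouse or from pooled mice. With 1 library per diet there is no test between diets, and no difference could be set against a spread between animals.

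Type I interferons bind the receptor Ifnar1/Ifnar2 and type III interferons bind Ifnlr1/Il10rb. The kinases Jak1 and Tyk2 then activate transcription factors that join Irf9 and bind a short element in the promoters of target genes, the interferon-stimulated response element. In liver, hepatocytes and non-parenchymal cells both respond to type I interferon, while Kupffer cells and plasmacytoid dendritic cells are known as sources of type I interferon. The target genes studied here act at different steps. Rsad2 (viperin) makes a nucleotide that stops viral RNA synthesis, and Ifit1 and Ifit3 form complexes that bind foreign RNA. Isg15 is a ubiquitin-like modifier, Usp18 removes it and also dampens receptor signalling, and Irf7 is a transcription factor that amplifies interferon production. Oasl1 is related to the oligoadenylate synthases, Gbp3 is a guanylate-binding GTPase, and Ifi44 and Ifi27l2a are interferon-induced proteins with less well described roles.

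The promoters of the genes that the results on single cells turn on are shown first, with that of Gbp3 beside them. In chow, Gbp3 transcripts were not held by a few cells. Windows of 300 bases, from 250 before to 50 after the gene start, were taken from RefSeq on build GRCm38.p6 and matched 8 of the 10 genes by symbol, with 2 windows for Gbp3. Usp18 and Ifi27l2a had no window. The core of the response element, searched as GAAANNGAA on both strands, was found in the windows of 6 of the 8 genes, against 8.56% of 32851 windows of the same length. With 1 more A required at its 3′ end it was found for 5 of the 8 genes, against 3.44% of windows. The stretches below are written 5′ to 3′ along the strand of the gene, with matches to the core or its reverse complement in capitals. Overlapping matches run together.
Isg15, chr4:156200852-156200920, minus strand: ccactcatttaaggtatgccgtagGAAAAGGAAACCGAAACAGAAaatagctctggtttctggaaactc
Ifit1, chr19:34640756-34640837, plus strand: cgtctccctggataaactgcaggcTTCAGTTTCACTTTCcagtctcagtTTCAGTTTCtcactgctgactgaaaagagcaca
Ifit3, chr19:34583350-34583459, plus strand: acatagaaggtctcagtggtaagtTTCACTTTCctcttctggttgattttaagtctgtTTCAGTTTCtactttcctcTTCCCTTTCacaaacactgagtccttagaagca
Rsad2, chr12:26456539-26456595, minus strand: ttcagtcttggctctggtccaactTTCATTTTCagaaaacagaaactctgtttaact
Gbp3, chr3:142559976-142560038, plus strand: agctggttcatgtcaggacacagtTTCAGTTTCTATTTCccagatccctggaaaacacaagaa

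Isg15, Ifit1 and Ifit3 each held 3 matches, Gbp3 held 2 and Rsad2 held 1. The Isg15 matches began between 78 and 66 bases before the gene start, those of Ifit1 between 109 and 84, and those of Ifit3 between 155 and 102. The match of Rsad2 began 119 bases before its gene start. The match of Ifi44 ran across the gene start and is not printed. No match was found in the windows of Irf7 and Oasl1, which says only that these letters are not there. The 10 genes lie on 7 chromosomes of the annotation used for positions (GENCODE M21, build GRCm38): Ifit3 at chr19:34583531-34588731 and Ifit1 at chr19:34640871-34650009 are neighbours in the same region, and Ifi44 and Gbp3 share chromosome 3. Of the last 500 transcript bases of Ifit3, 24% of 31-base words also occur in its near copy Ifit3b, so reads of these genes could be split or lost. For Isg15 the share was 10% over all other genes, for Ifi27l2a 6.00%, for Ifit1 3.40%, and for the other 6 genes 0%.

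The chow library held 7359 barcodes and 71635757 unique molecular identifiers (UMIs, each counting 1 captured RNA molecule), and the NASH diet library held 5881 barcodes and 39440182 UMIs. Kept were barcodes that reached 200 genes and 500 UMIs, held no more than 30% mitochondrial UMIs and were not likely doublets, which left 4041 and 2305. The libraries shared 69 barcodes, of which 8 were kept in both. Kept cells of the 2 diets differed in their median mitochondrial share, 11.9% in chow and 22.2% in NASH diet. Clusters were made without the 10 genes or any gene of the interferon lists, and were named from marker genes. Hepatocyte-like cells numbered 1782 in chow and 915 in NASH diet, and all 10 hepatocyte markers, Alb and Ttr among them, were read in them. Mononuclear phagocyte-like cells numbered 47 and 13, endothelial-like cells 79 and 55, and mesenchymal-like cells 13 and 16. The non-parenchymal groups thus rest on few cells. Low-UMI clusters of 1743 and 974 cells, and clusters 8 and 14 with 300 and 163 cells, kept no name.

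Hepatocyte-like cells carried 9 of the genes at 1.71 to 23.9 counts-per-million (CPM) and Ifi27l2a below 1, and the diets differed most in Rsad2. Levels are UMIs as CPM of all UMIs of the cell group, with exact 95% Poisson intervals that cover counting error only. Hepatocyte-like cells held 3956 UMIs of the 10 genes in chow, 88.9 CPM (86.1 to 91.7), and 1586 in NASH diet, 77.5 CPM (73.7 to 81.4). They made up 89.4% of all UMIs of kept chow cells and held 60.2% of the UMIs of the 10 genes. In NASH diet these shares were 81.0% and 49.5%. The remainder lay in the other kept groups, among them unnamed clusters that also held hepatocyte RNA. Clusters of 300 chow and 163 NASH diet cells held 9.94% and 10.4% of the summed UMIs, and low-UMI clusters 3.32% and 7.61%. The share in hepatocyte-like cells differed by gene. It was 1.32% in chow and 2.33% in NASH diet for Ifi27l2a, and 50.9% and 35.3% for Isg15. For Ifit1 it was 87.7% and 77.8%, for Usp18 83.4% and 80.7%, and for Oasl1 88.1% and 73.0%. The remaining genes lay between Isg15 and these.

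Among the antiviral effectors in hepatocyte-like cells, Rsad2 stood at 10.47 CPM in chow (9.54 to 11.5) and 3.57 in NASH diet (2.79 to 4.48). Ifit1 stood at 15.2 CPM (14.1 to 16.4) and 12.5 (11.02 to 14.1), and Ifit3 at 2.58 (2.13 to 3.102) and 3.22 (2.49 to 4.10). The modifier Isg15 stood at 14.5 CPM (13.4 to 15.7) and 9.43 (8.14 to 10.9). Its protease Usp18 stood at 6.54 (5.81 to 7.33) and 8.79 (7.55 to 10.2). The transcription factor Irf7 stood at 21.5 CPM (20.2 to 23.0) and 23.9 (21.9 to 26.1). Rsad2 and Isg15 were lower in the NASH diet library and Usp18 higher, with intervals that did not meet, and the Irf7 intervals overlapped. The intervals treat UMIs as independent, but 2 cells held 82.4% of the Rsad2 UMIs in chow and 1 cell 60.3% in NASH diet. They leave out the spread between cells and between animals, so their separation does not support a difference between diets. The values of Oasl1 were 11.5 and 10.8 CPM, of Ifi44 4.29 and 2.88, and of Gbp3 1.95 and 1.71.

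As log2 ratios of NASH diet over chow (CPM plus a pseudocount of 5, which shrinks the ratio of low genes), these differences ran from -0.85 for Rsad2 to 0.26 for Usp18. Isg15 had -0.44, Ifi44 -0.24, Ifit1 -0.21, Ifit3 0.12 and Irf7 0.12. Of the 10 genes 0 passed a log2 ratio of 1 in either direction, where 1.44% of 11431 genes did so upward and 1.16% downward. The median over the 10 genes was -0.05 and that over all genes 0.06. Usp18 had -0.21 with no limit on the mitochondrial share. The sum of the 10 genes had a log2 ratio of -0.19. It became 0.03 when cells needed 500 genes and 1000 UMIs, where Isg15 had 0.15. Without the 10 cells that held most of these UMIs in each library, the ratio of Rsad2 was -0.15.

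**Figure D1:**
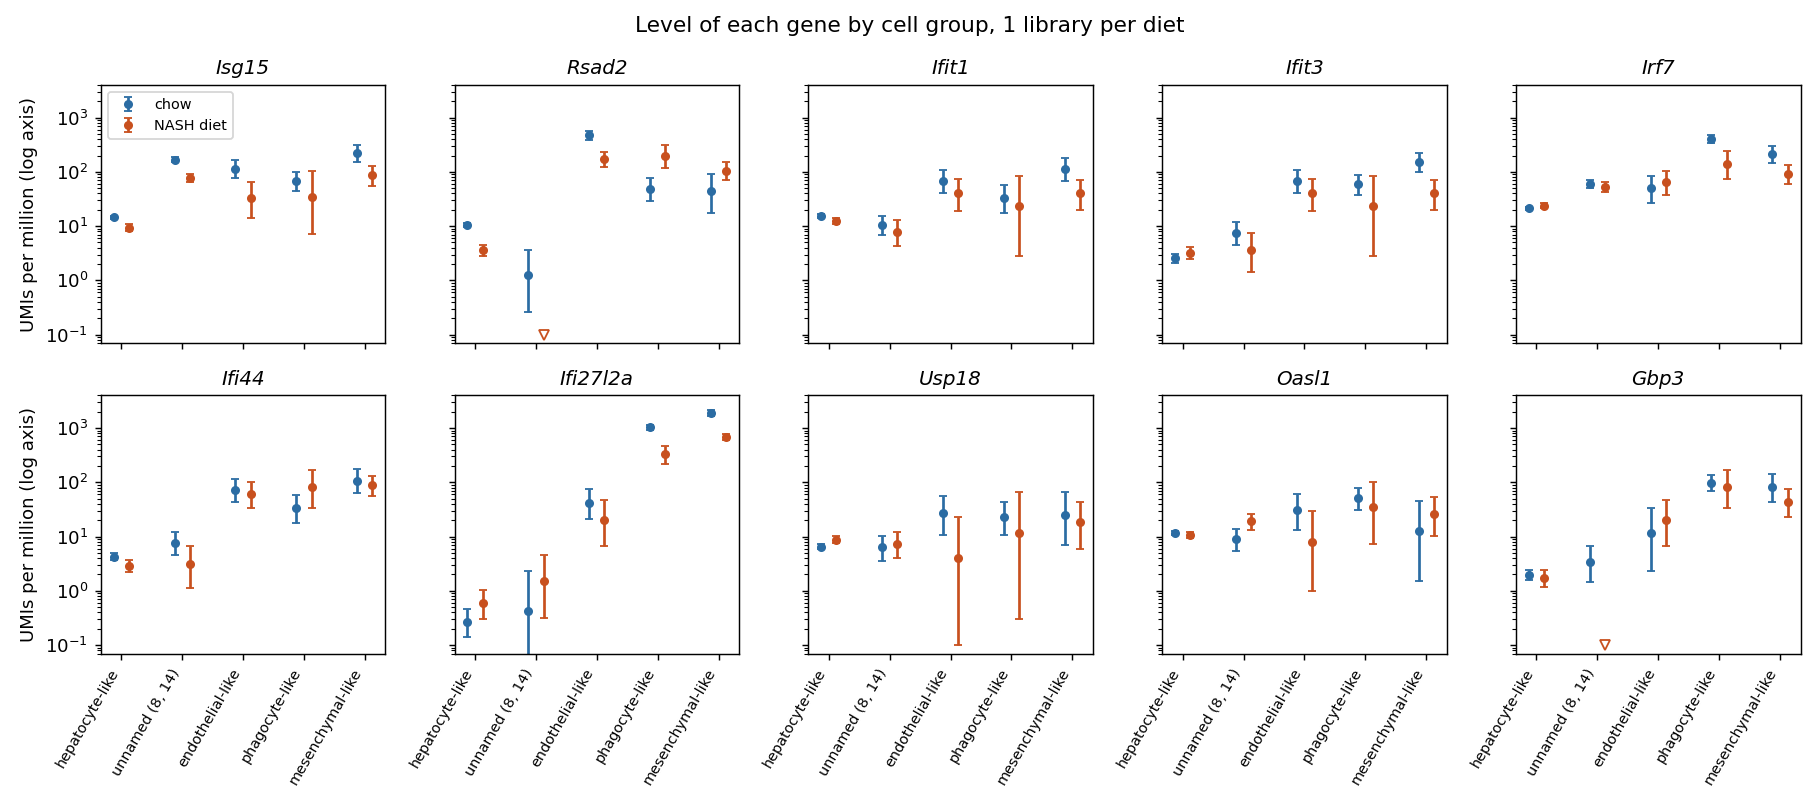
Level of each of the 10 genes, in CPM on a log axis, in 5 cell groups of the chow library (blue) and the NASH diet library (orange). Bars are exact 95% Poisson intervals of the UMI sums and open triangles mark a sum of 0. Ifi27l2a lies under 1 in hepatocyte-like cells and above 300 in the phagocyte-like and mesenchymal-like groups.

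Ifi27l2a was read almost wholly outside hepatocytes. It had 12 UMIs among 1782 hepatocyte-like cells of chow (0.27 CPM, 0.14 to 0.47), and no cell held more than 1. Among 915 hepatocyte-like cells of NASH diet it had 12 UMIs (0.59 CPM, 0.30 to 1.02). These lay in 9 cells, and the highest cell held 4. In mesenchymal-like cells it stood at 1888 CPM in chow and 685 in NASH diet, and in phagocyte-like cells at 1023 and 328. It was read in 11 of 13 and 13 of 16 mesenchymal-like cells, of which the highest held 121 of 298 and 62 of 188 UMIs. Free RNA can place single UMIs of a gene in cells that do not express it. Its part in the hepatocyte values was not tested, and they are not read here as expression. Thinned to 1000 UMIs, 1 of 1762 chow cells and 0 of 915 NASH diet cells held Ifi27l2a, against 26 of 46 and 2 of 13 phagocyte-like cells. Mesenchymal-like cells held 32.8% of the Ifi27l2a UMIs of kept chow cells in 0.317% of all UMIs, and 36.4% of those of NASH diet in 1.09% of all UMIs. Phagocyte-like cells held 43.8% in chow, and in NASH diet 5.43%, which is 28 UMIs in 13 cells. In NASH diet, 14 monocyte-like cells held 23.6% and 21 T cell-like cells 14.7%, both more than the phagocyte-like cells, and in chow 3 monocyte-like cells held 6.83%.

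Most of the Rsad2 UMIs of hepatocyte-like cells lay in very few of the cells that held any. In chow, 48 of 1782 hepatocyte-like cells held its 466 UMIs, and the highest cell alone held 201 of them (43.1%). The second held 183, and both together held 82.4%. In NASH diet, 13 of 915 cells held 73 UMIs, and the highest cell held 44 (60.3%). The 10 highest cells held 91.8% in chow and 95.9% in NASH diet, and every other chow cell with Rsad2 held 1 UMI. No other gene with at least 100 and under 1000 UMIs in chow hepatocyte-like cells had a larger share in 10 cells, among 5531 such genes with a median of 6.65%. In NASH diet Rsad2 ranked 38 of 2375 genes with 20 to 99 UMIs, whose median was 26.0%.

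Ifit3 and Ifit1 followed the same pattern in a weaker form. The 10 highest cells held 75.7% of the Ifit3 UMIs in chow (rank 3 of 5531) and 80.3% in NASH diet (rank 48 of 2375). With 115 UMIs, Ifit3 in chow lay at the lower end of the range of totals it was ranked in, as did Ifi44 with 191. Chow genes of 20 to 99 UMIs had a median of 24%. For Ifit1 the shares were 53.7% (rank 5 of 5531) and 53.5% (rank 12 of 5809). Isg15 had 25.7% (rank 33) and 43.5% (rank 18), with UMIs in 363 chow cells and 103 NASH diet cells. Usp18 had 20.3% (rank 46 of 5531) and 20.6% (rank 116 of 5809), and Oasl1 17.1% (rank 91) and 13.5% (rank 1261). Ifi44 had 18.3% (rank 66 of 5531) in chow and, with 59 UMIs, 52.5% (rank 140 of 2375) in NASH diet. Irf7 was spread over many cells: 657 chow cells (36.9%) and 328 NASH diet cells (35.8%) held at least 1 UMI, no cell held more than 6 in chow or 12 in NASH diet, and its 10 highest cells held 4.69% and 13.9%. With 959 UMIs, Irf7 in chow lay at the upper end of the range of totals it was ranked in, and genes of 1000 or more UMIs had a median of 2.98%. In NASH diet, with 490 UMIs, the medians of the same ranges were 9.68% and 4.89%. Gbp3, with 87 UMIs in chow, had 24.1% against a median of 24%. In NASH diet, with 35 UMIs, Gbp3 had 42.9% against a median of 26.0% (rank 373 of 2375).

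**Figure D2:**
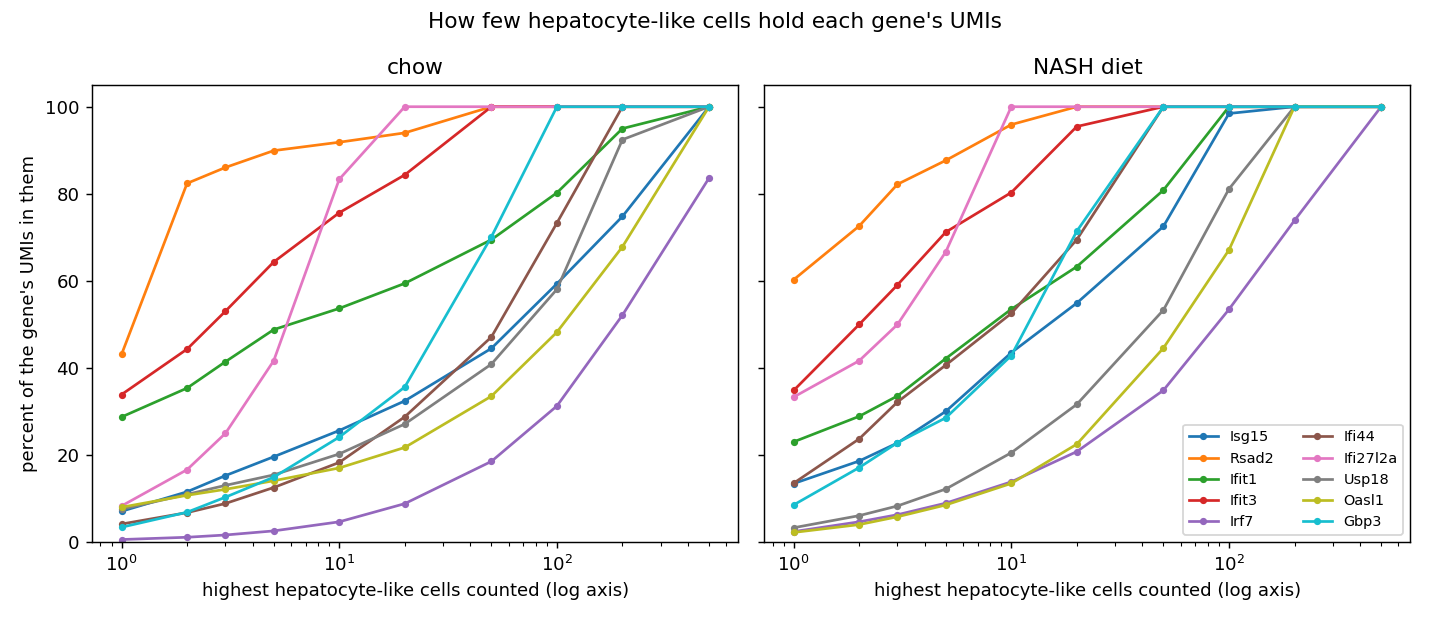
Percent of each gene's UMIs (vertical axis) held by the highest 1 to 500 hepatocyte-like cells (horizontal log axis), in chow (left) and NASH diet (right). The Rsad2 line passes 80% within 2 cells in chow and 3 cells in NASH diet, while the Irf7 line is the lowest or among the lowest in both panels. Ifi27l2a has 12 UMIs in each library, so its line says little.

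A barcode was called member-high when at least 0.2% of its UMIs came from the 10 genes and at least 3 of them were read. This is a range on a per-cell score and not a cell type: 52 kept chow barcodes and 40 of NASH diet lay between 0.1% and 0.4%. Member-high barcodes numbered 40 in chow (0.990% of kept cells, exact 95% binomial interval 0.708 to 1.35%) and 23 in NASH diet (0.998%, 0.634 to 1.49%). They held 35.4% of the UMIs of the 10 genes in chow and 21.0% in NASH diet, in 0.982% and 0.804% of all UMIs. Of the 69 barcodes shared by the libraries, 0 were member-high.

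By cell group, 17 of 47 phagocyte-like cells in chow and 2 of 13 in NASH diet were member-high. The counts were 6 of 13 and 1 of 16 for mesenchymal-like cells, 3 of 79 and 2 of 55 for endothelial-like cells, and 5 of 1782 and 4 of 915 for hepatocyte-like cells. Hepatocyte-like cells were therefore member-high in 0.281% (0.091 to 0.654%) of chow cells and 0.437% (0.119 to 1.12%) of NASH diet cells. Those 5 and 4 cells held 26.6% and 19.0% of the group's UMIs of the 10 genes. In phagocyte-like cells of chow the member-high state rested mainly on Ifi27l2a and Irf7: the cell with the most member UMIs held 47 of Ifi27l2a and 9 of Irf7 among 67. Ifi27l2a also had the most UMIs of the 10 genes in each member-high mesenchymal-like cell. It made up from 16 of 45 to 121 of 126 in chow, and 62 of 69 in NASH diet. In hepatocyte-like member-high cells Ifi27l2a was read 0 times in both libraries.

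The highest chow hepatocyte-like cell held 531 UMIs of the 10 genes among 32796: 201 of Rsad2, 195 of Ifit1, 41 of Oasl1, 39 of Ifit3, 29 of Isg15, 22 of Usp18, 3 of Irf7 and 1 of Gbp3. Another held 272 among 17645, with 183 of Rsad2 and 35 of Ifit1. The next held 124 among 21739, with Isg15 (46) and Ifit1 (41) ahead of Rsad2 (12). The first cells were rich in Rsad2 and the last of these in Isg15, so the mixture differed from cell to cell. The highest NASH diet cell held 134 among 21860, with 59 of Ifit1, 44 of Rsad2, 10 of Ifit3 and 6 of Isg15. The next held 96 among 26250, with Isg15 (26) and Ifit3 (23) above Ifit1 (11), Irf7 (11) and Rsad2 (9).

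**Figure D3:**
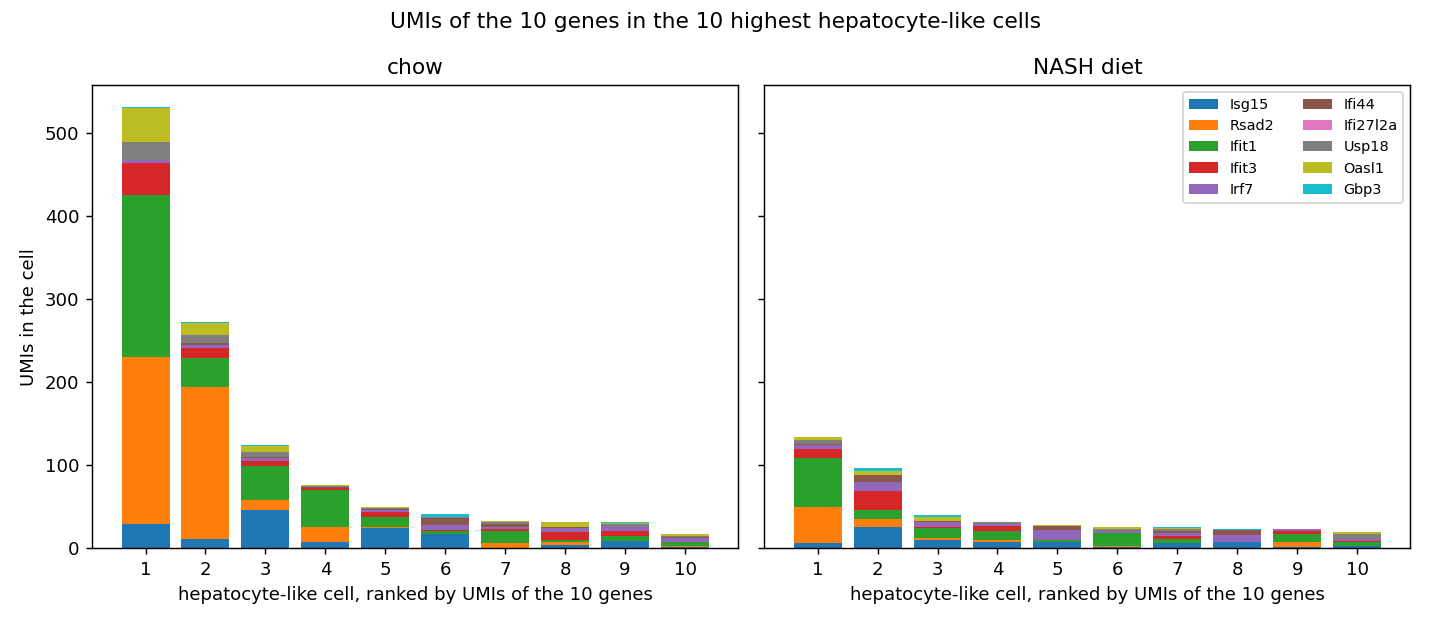
UMIs of each gene (stacked bars) in the 10 hepatocyte-like cells of each library with the most UMIs of the 10 genes. In chow the first 2 cells hold 531 and 272 UMIs, mostly Rsad2 and Ifit1, and in NASH diet the first holds 134.

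Phagocyte and endothelial markers were at or near 0 in these hepatocytes, and markers of other cell types were not counted in them. The 13 phagocyte markers summed to 0 UMIs in each of the 9 member-high hepatocyte-like cells, and the 12 endothelial markers to 0 or 1. Their Alb counts ran from 147 to 1346 UMIs. Their median depth was 21739 UMIs in chow and 19913 in NASH diet, and that of the other hepatocyte-like cells 25505 and 21238. Median mitochondrial shares were 18.5% and 24.6%, beside 18.8% and 24.2% in the others. Outside these 9 cells Rsad2 stood at 1.17 CPM in chow and 0.784 in NASH diet, and inside them at 3677 and 707. Irf7 stood at 107 and 298 CPM inside and 21.3 and 22.8 outside. These differences follow from how the cells were picked and are given as a description.

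Member-high hepatocytes came mainly from the clusters that carried Cyp2e1, a cytochrome of hepatocytes near the central vein. The hepatocyte-like cells of the diets fell into different clusters: 0, 5 and 6 held the chow cells, and 2 and 13 nearly all the NASH diet cells. Clusters 0 and 2 were high in Cyp2e1 (3694.5 and 5395 CPM, against 99.1 in cluster 5 and 145 in cluster 13). Clusters 5 and 13 were high in Cyp2f2, a cytochrome of hepatocytes near the portal vein (1341 and 2051 CPM, against 52.3 and 210). Of the member-high hepatocytes, 4 of 5 in chow lay in cluster 0, with 623 cells, and 1 in cluster 5, with 1087. In NASH diet 3 of 4 lay in cluster 2, with 329 cells, and 1 in cluster 13, with 577. Rsad2 stood at 26.2 CPM in cluster 0 and 1.80 in cluster 5 of chow, and at 6.98 in cluster 2 and 1.11 in cluster 13 of NASH diet. The sum of the 10 genes was 124 CPM in cluster 0, 69.8 in cluster 5, 95.8 in cluster 2 and 63.1 in cluster 13.

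Most of that difference between clusters lay in the 10 highest cells of each library. Without them Rsad2 stood at 0.765 CPM in cluster 0 and 1.03 in cluster 5, and at 0.358 in cluster 2 and 0.344 in cluster 13. The sum of the 10 genes was then 59.2 and 64.2 CPM in chow and 52.9 and 57.9 in NASH diet, so the order of the clusters turned. The cells left out were picked by these same genes. In chow 6 lay in cluster 0 and 4 in cluster 5, and in NASH diet 8 in cluster 2 and 2 in cluster 13. Leaving out more of the highest cells lowers a cluster more, so the turned order is not read as a result. Usp18 kept its order: without those cells it stood at 6.44 CPM in cluster 0 and 4.96 in cluster 5, and at 12.9 in cluster 2 and 4.56 in cluster 13. Cluster 5 had Spp1, a gene of bile duct cells, among its 10 leading genes against all other cells. Spp1 stood at 199 CPM there and at 2.46 in cluster 0, and Sox9, another cholangiocyte marker, at 46.3 and 18.3. Krt19 stood at 0.176 CPM and Epcam at 0.317 in cluster 5. Against the non-parenchymal clusters, 2 hepatocyte markers and 0 markers of another class were among its 10 leading genes. Comparing by cluster, the sum of the 10 genes had a log2 ratio of NASH diet over chow of -0.36 between the Cyp2e1-high clusters 2 and 0, and -0.11 between the Cyp2f2-high clusters 13 and 5. The split by these cytochromes was chosen after seeing the data.

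**Figure D4:**
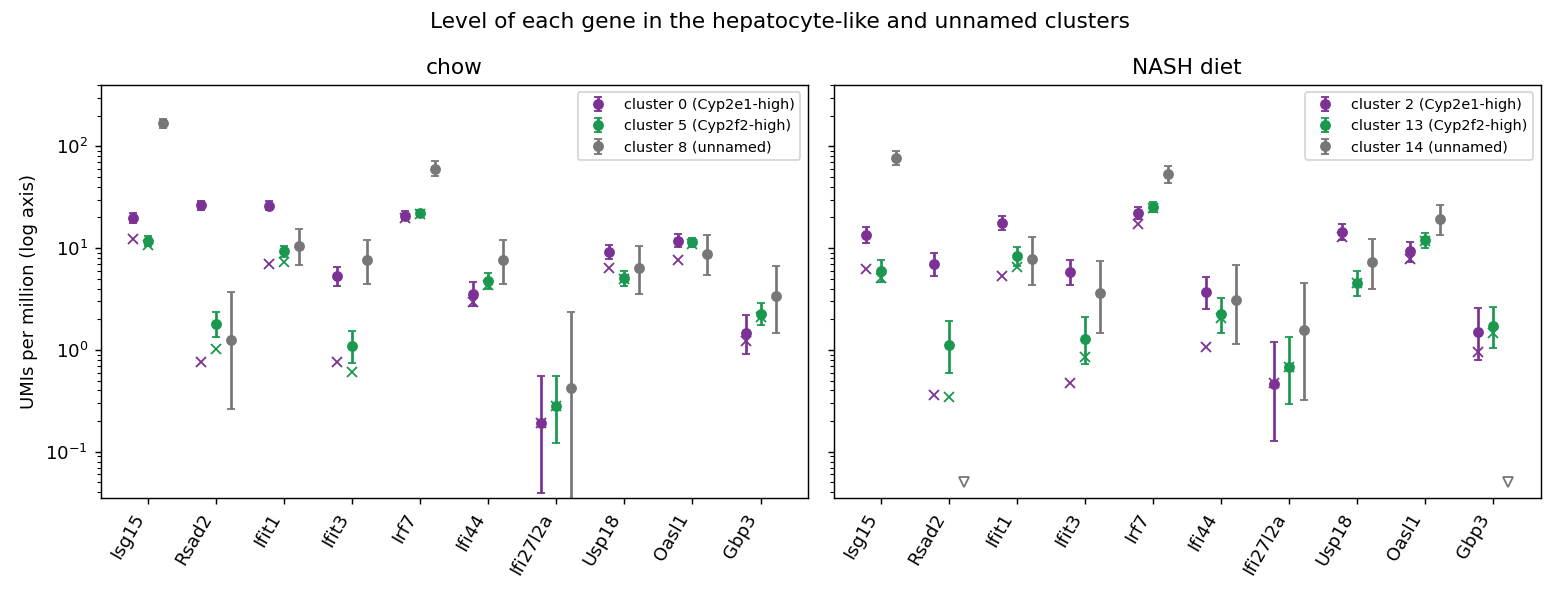
Level of each gene, in CPM on a log axis, in the Cyp2e1-high (purple), Cyp2f2-high (green) and unnamed (grey) clusters of chow (left) and NASH diet (right). Bars are exact 95% Poisson intervals, open triangles mark a sum of 0, and crosses give the level without the 10 hepatocyte-like cells with the most UMIs of these genes. Rsad2 in cluster 0 drops from 26.2 to 0.765 without those cells, while Irf7 moves little.

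Isg15 stood higher in the unnamed clusters 8 and 14 than in hepatocyte-like cells, while Rsad2 stood lower. Cluster 8, with 300 chow cells, and cluster 14, with 162 NASH diet cells, held hepatocyte RNA but had median mitochondrial shares of only 2.23% and 4.51%, and stayed unnamed because their mean log2 fold of hepatocyte markers over the non-parenchymal clusters was 0.85 and 0.90, under the 1 needed. Together with 1 further cell, these unnamed clusters had Isg15 at 169 CPM in chow (153 to 186) and 76.9 in NASH diet (65.1 to 90.3), where hepatocyte-like cells had 14.5 and 9.43. Isg15 was read in 124 of 300 chow cells and 68 of 163 NASH diet cells, and the highest cell held 79 of 401 UMIs in chow. Irf7 stood at 60.1 and 53.2 CPM there. Rsad2 had 3 UMIs in chow (1.26 CPM) and 0 in NASH diet, and Ifit1 10.51 and 7.74 CPM. The low-UMI unnamed clusters, which also held hepatocyte RNA, had Isg15 at 75.2 CPM in chow (60.8 to 91.9) and 70.2 in NASH diet (56.9 to 85.6). Rsad2 had 12 and 7 UMIs there, and the median mitochondrial shares were 6.30% and 22.0%. Isg15 was itself among the 10 leading genes of cluster 8, although it took no part in the clustering.

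To follow this on 1 scale, hepatocyte-like cells and these unnamed clusters were pooled and split at 5% mitochondrial UMIs, with levels as CPM of UMIs from genes not encoded in mitochondria. The split was chosen after seeing the data. Isg15 stood at 178 in 243 chow cells under 5% and at 18.3 in 1839 cells from 5 to 30%, a log2 ratio of 2.98 that ranked 2 of 10979 genes. In NASH diet it stood at 79.1 in 89 cells and 14 in 989, a ratio of 2.15 that ranked 22 of 10427. Irf7 had ratios of 1.06 and 0.93, Ifit1 -0.56 and -0.84, and Rsad2 -1.48 and -0.93. In chow 10.2% of genes passed a log2 ratio of 1 upward in this contrast and 16.1% downward. In NASH diet these shares were 8.22% and 23.3%. The 5% split is close to the cluster split: 234 of the 243 chow cells and 88 of the 89 NASH diet cells under 5% came from the unnamed clusters. Within hepatocyte-like cells alone the chow ratio was 2.57, on 9 cells with 3 Isg15 UMIs, and the NASH diet ratio was -1.79, on 1 cell with 0 Isg15 UMIs. Within the unnamed clusters of chow, Isg15 stood at 178 under 5% (161 to 197) and 99.3 from 5 to 30% (58.9 to 157). In those of NASH diet it stood at 79.5 (65.7 to 95.4) and 81.9 (56.4 to 115). The part of the mitochondrial share in these levels was not tested.

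In the non-parenchymal groups the diets differed by gene and by cell group. Phagocyte-like cells, of which Kupffer cells are the main kind in liver, had Irf7 at 409 CPM in chow (348 to 477) and 140 in NASH diet (72.6 to 245), and Rsad2 at 48.8 (29.4 to 76.2) and 199 (116 to 319). Of 8 genes with at least 20 UMIs there, 2 passed a log2 ratio of 1 upward (Rsad2 1.92 and Ifi44 1.18) and 3 downward (Ifit3 -1.17, Irf7 -1.51 and Ifi27l2a -1.63). Over all 3798 genes, 7.29% passed upward and 11.6% downward. The NASH diet side rests on 17 Rsad2 UMIs in 5 cells, of which 1 cell held 8. The 13 phagocyte markers of this group, all read, summed to 36482 CPM in chow and 21038 in NASH diet, and the 12 endothelial markers to 1490 and 3301. Their part in the differences was not tested. The median over the 8 genes was -0.67 and over all genes -0.05. Without the 10 cells with the most UMIs of the set in each library, which leaves 3 NASH diet cells, the Rsad2 ratio was -3.75. In such sums, fewer expressing cells and less RNA per cell cannot be told apart.

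Endothelial-like cells had Rsad2 at 474 CPM in chow (395 to 566) and 170 in NASH diet (122 to 230). Of 6 measured genes 0 passed upward and 2 downward, Isg15 (-1.68) and Rsad2 (-1.46), where 4.02% of 4427 genes passed upward and 4.99% downward. The median was -0.70, and -0.03 over all genes. A single chow cell held 94 of the 124 Rsad2 UMIs (75.8%) together with 11 of Isg15, 9 of Ifit1 and 8 of Ifit3. It had 62 endothelial marker UMIs and 0 of phagocyte markers. Without the cell with the most member UMIs in each library the Rsad2 ratio was 0.38. With no limit on the mitochondrial share the Isg15 ratio was 0.28.

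Mesenchymal-like cells had Isg15 at 222 CPM in chow (154 to 308) and 87.4 in NASH diet (56.0 to 130). Of 8 measured genes 1 passed upward, Rsad2 (1.16), and 5 downward, Isg15, Ifit1, Ifit3, Irf7 and Ifi27l2a (-1.16 to -1.80), where 5.53% of 4156 genes passed upward and 5.63% downward. The median was -1.23, and -0.04 over all genes. Markers of another cell type moved with this: the 13 phagocyte markers, all of them read, summed to 9782 CPM in chow mesenchymal-like cells and 3050 in NASH diet, and the endothelial markers to 7489 and 7844. Of the 6 member-high mesenchymal-like cells of chow, 3 held 111 to 257 phagocyte marker UMIs and the other 3 held 0 or 1. Their part in the difference was not tested. As a mean over cells of each cell's CPM, the ratios of Rsad2 and Irf7 in mesenchymal-like cells changed sign, to -0.17 and 0.21. Without the 10 cells with the most UMIs of the set in each library, which leaves 3 chow and 6 NASH diet cells, the ratio of Isg15 was 4.29, of Irf7 0.23 and of Rsad2 -1.39.

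The share of cells with a UMI was compared at equal depth, with each cell thinned to 1000 UMIs and shallower cells left out. At least 1 of the 10 genes was then read in 6.58% of 1762 hepatocyte-like cells of chow (5.47 to 7.84%) and 5.68% of 915 of NASH diet (4.27 to 7.39%), and the intervals overlapped. Unthinned shares were 66.7% and 61.4%, at median depths of 25504.5 and 21238 UMIs. Thinned phagocyte-like cells had 73.9% of 46 and 53.8% of 13, endothelial-like cells 27.7% of 47 and 36.4% of 44, and mesenchymal-like cells 61.5% of 13 and 66.7% of 15. The unnamed clusters 8 and 14 had 16.1% of 299 and 17.2% of 163. Thinning left out 20 and 0 hepatocyte-like cells, and 32 and 11 endothelial-like cells.

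Reading several of the genes in 1 hepatocyte-like cell depended on the depth. Of the cells with any of the genes at that depth, 7 of 116 in chow and 5 of 52 in NASH diet held more than 1. Ifit1 was read in 3 of 18 chow cells with Isg15 and in 1.20% of those without, and in NASH diet in 0 of 5 and 1.10%. At a depth of 10000 UMIs, chosen after seeing the data, 1633 chow and 860 NASH diet cells remained. Ifit1 was then read in 26 of 164 chow cells with Isg15 (15.9%) and in 4.97% of cells without it. In NASH diet it was read in 15 of 48 cells with Isg15 (31.3%) and in 4.56% of those without. Of the cells with Ifit3, 7 of 16 in chow and 7 of 10 in NASH diet also held Ifit1, which stood at 6.06% and 6.05% over all cells. Irf7, read in 18.1% and 19.1% of all cells, was read in 26.8% and 39.6% of those with Isg15. One chow cell held 9 of the 10 genes at this depth and one NASH diet cell held 8.

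Across hepatocyte-like cells, the Pearson correlation of log counts per 10000 was 0.64 in chow (1782 cells) and 0.67 in NASH diet (915 cells) for Rsad2 and Ifit1. For Ifit1 and Ifit3 it was 0.63 and 0.61, and for Isg15 and Ifit1 0.46 and 0.52. Cells of 1 library share their depth range and preparation, and these values are a description. Without the 10 cells with the most UMIs of these genes in each library, the first pair had 0.04 in both. The second then had 0.04 and 0.05, and the third 0.15 and 0.17. The cells left out were picked by the same genes, which by itself lowers the correlations, so the fall is only a description. The pairs given are 3 of the 45. Other pairs also had small positive values without those cells, such as Ifit1 with Oasl1 at 0.12 in chow and Ifi44 with Gbp3 at 0.17 in NASH diet.

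**Figure D5:**
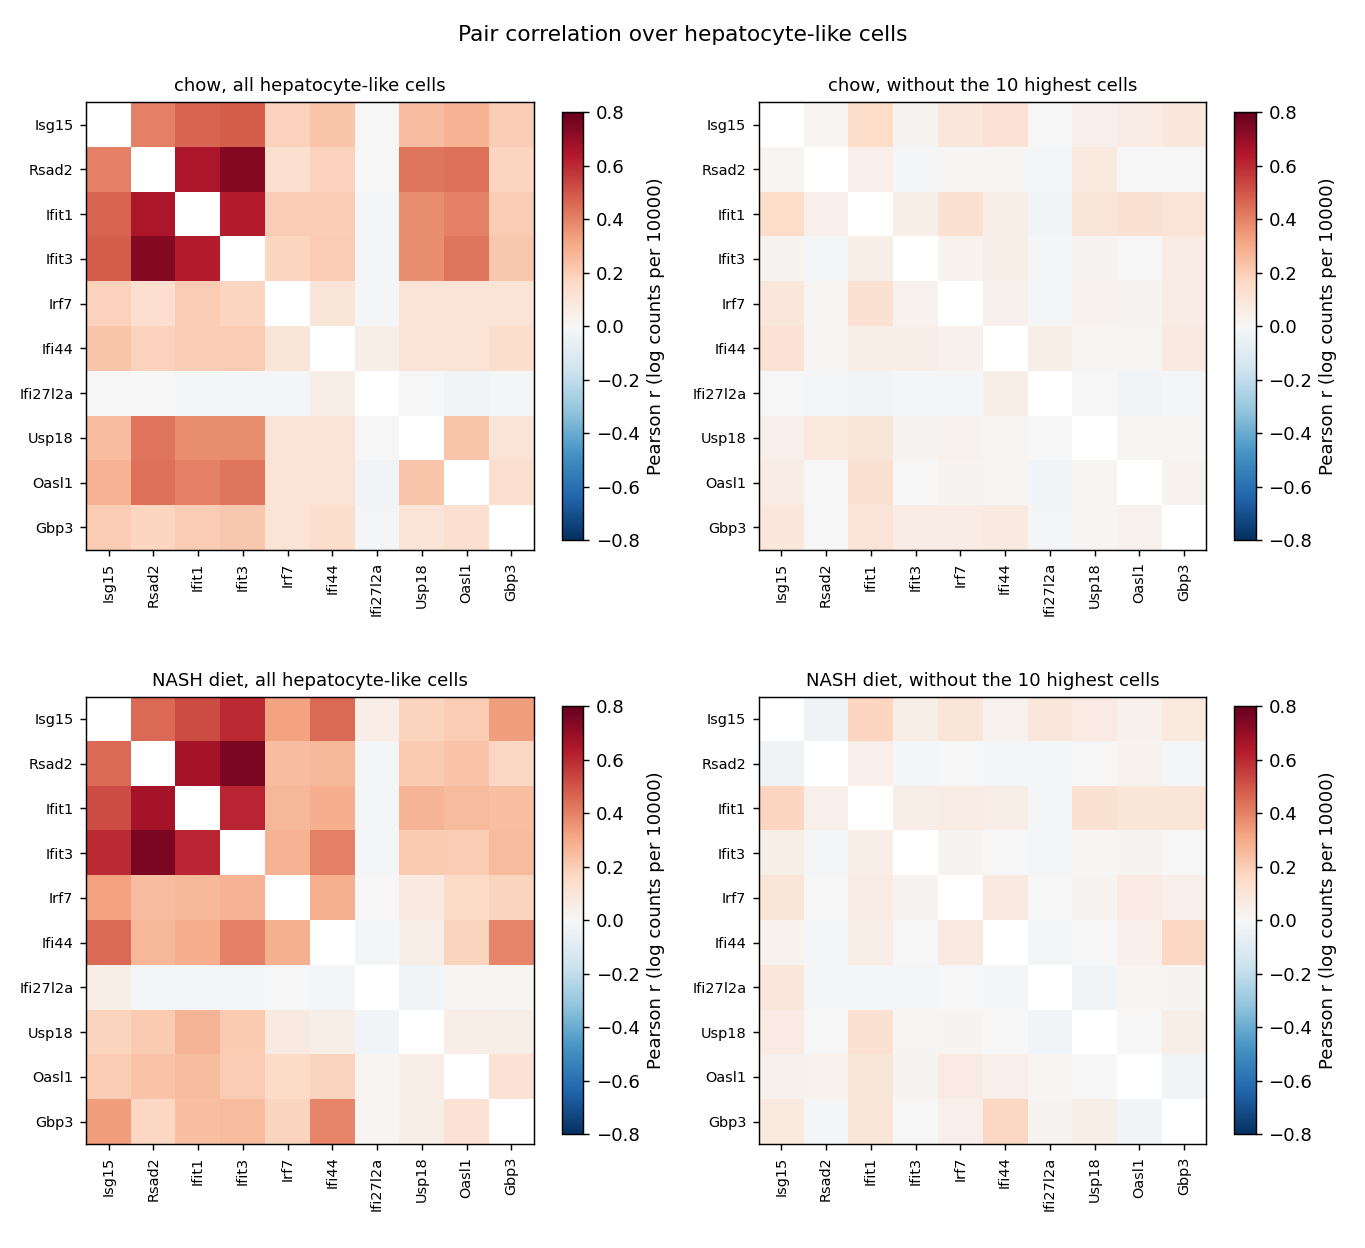
Pearson correlation of each pair of genes over hepatocyte-like cells (colour scale from -0.8 to 0.8), with all cells (left) and without the 10 highest cells (right), in chow (top) and NASH diet (bottom). The block of Rsad2, Ifit1 and Ifit3 reaches 0.75 on the left and is near 0 on the right, and Ifi27l2a is near 0 throughout.

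The genes whose counts followed the sum of the 10 genes most closely in hepatocyte-like cells were themselves mostly of the interferon pathway. Of the 30 genes with the highest Pearson correlation, among 10890 ranked in chow and 10224 in NASH diet, 18 in each library belonged to the pathway lists, and 18 genes were in both top 30. Genes of those lists made up 0.468% of the genes ranked in chow and 0.440% in NASH diet. Of those shared by both, the closest in chow were Cmpk2, a mitochondrial nucleotide kinase encoded next to Rsad2 (r = 0.41), and the guanylate-binding Gbp7 (0.31). In NASH diet Rnf213, a ubiquitin ligase, had 0.28. The others named here were the GTPases Ifi47, Igtp and Irgm1, the helicases Ddx60 and Ifih1, Trim30a, Samd9l, Rtp4, Herc6, Lgals3bp, the immunoproteasome subunit Psmb8, Apol9a and AW112010, with r from 0.15 to 0.30. The pathway lists, and the 10 genes, were chosen with earlier results of these data known.

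The ligands searched were not read in hepatocyte-like cells. Ifnb1, Ifna1, Ifna2, Ifna4, Ifnl2 and Ifnl3 had 0 UMIs among all 7359 chow and all 5881 NASH diet barcodes, and Ifng had 0 in chow and 20 in NASH diet, of which 0 lay in hepatocyte-like cells. Among 7 ligands, 12 receptors and transducers, 12 sensors, 24 other antiviral effectors, 12 GTPases, 8 gamma and chemokine targets and 6 negative regulators, only Socs3 passed a log2 ratio of 1 in hepatocyte-like cells. Socs3, a feedback inhibitor of cytokine receptors, stood at 62.1 CPM in chow and 19.0 in NASH diet (-1.48). Over all 11431 genes measured in these cells, 1.44% passed upward and 1.16% downward, and the median log2 ratio was 0.06. Receptors and transducers had 11 of 12 measured with a median of -0.11: Jak1 stood at 74.7 and 63.0 CPM and Ifnar2 at 49.1 and 37.8. Sensors had 8 of 12 measured with a median of 0.03: the adaptor Mavs stood at 45.4 and 47.8 CPM, Irf3 at 30.6 and 33.0, and Ifih1 at 25.8 and 24.7. Other effectors had 18 measured with a median of -0.16: Ifitm3 stood at 945 and 592 CPM (-0.67), Ly6e at 499 and 252 (-0.97) and Bst2 at 161 and 175. The GTPases had 9 measured, 0 of them above 0, with a median of -0.17: Irgm1 stood at 41.6 and 33.7 CPM, Irgm2 at 35.5 and 30.7 and Ifi47 at 38.4 and 16.9 (-0.98).

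Gamma and chemokine targets had 5 of 8 measured with a median of 0.03 in hepatocyte-like cells, and negative regulators, which include Usp18, 6 of 6 with a median of -0.09. Outside hepatocytes, Cxcl9 and Cxcl10, chemokines that attract T cells through Cxcr3, passed a log2 ratio of 1. Of these targets 2 of 4 measured passed upward in phagocyte-like cells, which number 13 in NASH diet. In endothelial-like cells 1 of 4 passed downward, and in mesenchymal-like cells 1 of 3 upward. Over all genes 7.29% passed upward and 11.6% downward in phagocyte-like cells. The shares were 4.02% and 4.99% in endothelial-like cells and 5.53% and 5.63% in mesenchymal-like cells. Cxcl9 in phagocyte-like cells stood at 254 CPM in chow (99 UMIs) and 1475 in NASH diet (126 UMIs), and in mesenchymal-like cells at 25.3 (4 UMIs) and 219 (60 UMIs). Its log2 ratios there were 2.51 and 2.88, while in hepatocyte-like cells Cxcl9 stood at 19.2 and 7.37 CPM (-0.97). Cxcl10 stood at 200 and 445 CPM in phagocyte-like cells and at 226 and 109 in endothelial-like cells. Jak1 in phagocyte-like cells stood at 221 and 539 CPM (1.27). Genes of other lists also passed downward: of 7 sensors measured in phagocyte-like cells, 1 passed upward and 3 downward. In endothelial-like cells 0 of 10 receptors and transducers passed upward and 3 downward. In mesenchymal-like cells 1 of 17 other effectors passed upward and 3 downward.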

How the data were processed

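The authors deposited 1 matrix of UMI counts per library (whole-number counts, not normalized) from a 10x Genomics 3′ kit. Cell Ranger 3.1.0, Seurat and mm10 are named per the submitters' processing notes, with no step for Seurat, while the deposited matrix header names version 3.0.2. Counts of 3′ ends do not compare levels between genes. A merged matrix was used only as an alternative. Column names left 0 columns unmatched.

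Barcodes with at least 200 genes, 500 UMIs and at most 30% mitochondrial UMIs were kept, and the highest Scrublet scores were removed at 0.8% per 1000 barcodes. Clusters (scanpy 1.11.5, numpy 2.4.6, scipy 1.17.1, scikit-learn 1.9.0, igraph 0.11.9) used 2000 variable genes, 30 components, 15 neighbours and Leiden resolution 1 with seed 0, without interferon genes. Names needed a mean log2 fold of markers of 1, with 3 markers each in 10% of cells. Hepatocyte-like clusters were named against pooled non-parenchymal clusters. Rebuilt names may differ from the study's. Ratios used CPM plus 5 and at least 20 UMIs over both libraries. Intervals are exact, 95%, and cover counting error only. Pathway genes named were the 3 with the most hepatocyte-like UMIs of each list and those past a log2 ratio of 1, at most 4 a list. The genes most like the set were those in the top 30 of both libraries, read in at least 20 cells. Some genes that these rules select are not reported here. Scripts were checked on simulated data. The members and lists were chosen with earlier results of these data known. With 1 library per diet no test was made.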

Additional observations from a re-analysis of the deposited data

Results flagged for a closer look

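The log2 ratio of Rsad2, NASH diet over chow, pointed in different directions in the cell groups: 1.92 in mononuclear phagocyte-like cells, -1.46 in endothelial-like cells and 1.16 in mesenchymal-like cells. With 1 library per diet the difference between the groups was not tested. Each direction rests on few cells: the ratio was -3.75 in phagocyte-like cells and -1.39 in mesenchymal-like cells without the 10 highest cells, -0.17 in mesenchymal-like cells as a mean over cells, and 0.38 in endothelial-like cells without the highest cell.

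Barcodes with 30 to 80% mitochondrial UMIs were left out of the comparisons but held UMIs of the 10 genes, at 95.1 CPM in 463 chow barcodes and 112 CPM in 2389 NASH diet barcodes. Kept cells had 132 and 127 CPM, and barcodes over 80% had 6.80 and 7.66. CPM here are of all UMIs, so a higher mitochondrial share by itself lowers them.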

How the results depend on the processing

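No paired analysis was possible because each diet has 1 library. Over planned and added settings, 71 values of the main results stayed within a set margin, 29 moved and 1, past a log2 ratio of 1, changed sign. The margin was counting error for ratios and shares. For member-high and motif counts it was a fixed fold, and for correlations an interval that takes cells as independent. The summed ratio, which was under 1, changed sign among those that moved. Of the single-gene ratios 245 stayed, 21 moved and 8, past a log2 ratio of 1, changed sign. Smaller ratios that changed sign are counted with those that stayed or moved, such as Usp18 and Isg15 in hepatocyte-like cells. The cause of each move was not tested. The summed log2 ratio in hepatocyte-like cells (-0.19) was -0.37 with no mitochondrial limit, 0.025 with at least 500 genes and 1000 UMIs, and -0.36 in the Cyp2e1-high clusters.

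The share of UMIs in the 10 highest hepatocyte-like cells in chow (30.5%) was 28.5% with no doublet removal and 29.1% with the unnamed clusters. In NASH diet (28.0%) it was 21.0% with no mitochondrial limit, 25.3% with at least 500 genes and 23.97% at Leiden resolution 2.0 and 23.96% with the unnamed clusters.

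Member-high barcodes numbered 65 and 46 at 0.1% of UMIs and 13 and 6 at 0.4%. The share of hepatocyte-like cells with a UMI was 12.2% in chow and 11.9% in NASH diet when thinned to 2000, 66.7% and 61.4% unthinned, 7.96% and 7.42% with the unnamed clusters, and 7.70% in NASH diet with at least 500 genes. Cells with more than 1 gene made up 12.2% in chow thinned to 2000, and 25.5% and 23.4% thinned to 10000.

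The Isg15 ratio by mitochondrial share in hepatocyte-like clusters alone was 2.57 in chow and -1.79 in NASH diet, and 2.76 in chow without the 10 highest cells. Without those cells the correlation of Isg15 and Ifit1 was 0.15 and 0.17, and of Rsad2 and Ifit1 0.038 and 0.042.

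Single-gene log2 ratios past 1 changed sign in small groups. Without the 10 highest cells, Rsad2 was -3.75 in phagocyte-like cells, and Rsad2, Isg15 and Irf7 were -1.39, 4.29 and 0.23 in mesenchymal-like cells. As means over cells, mesenchymal-like Rsad2 and Irf7 were -0.17 and 0.21. In endothelial-like cells Rsad2 was 0.38 without the highest cell, and Isg15 was 0.28 with no mitochondrial limit. The unnamed-cluster, 10000-UMI, Cyp2e1 and mitochondrial-share settings were chosen after seeing the data.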
